A study of Mus musculus with 6 samples.

Results

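A set of 10 inhibitory receptors and nucleotide-degrading surface enzymes were followed by RNA-seq in mouse T cell cultures exposed to sphingosine-1-phosphate (S1P), a signaling lipid that acts through G protein-coupled receptors. The 10 genes were taken by name from the 56941 gene identifiers of the count table, with no threshold on their measured values. They were the receptor genes Pdcd1, Ctla4, Btla, Cd160, Lag3, Havcr2, Tigit and Cd244a and the ectonucleotidase genes Entpd1 and Nt5e. All 10 passed the filter on low counts, as did 13299 genes in all. The study compared 3 vehicle-treated with 3 S1P-treated samples, to ask how S1P alters CD8+ T cells. Per the labels, in both groups naive CD8+ T cells purified from the spleens of B6 mice were stimulated for 3 days with immobilized antibodies to CD3 and CD28 plus recombinant IL-2, and either vehicle or 5 µM S1P was added after 24 h. The study's methods instead give the starting cells of its cultures as purified naive T cells or total splenocytes, so which were used for these samples was not settled. They give mouse ages of 8 to 10 weeks for the tumor experiments and 6 to 8 weeks in the cell transfer protocol, and no separate age for these cultures.

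Inhibitory receptors restrain T cells that have met antigen. PD-1 (Pdcd1) and CTLA-4 (Ctla4), both of the CD28 family, act at different points: PD-1 recruits phosphatases that dampen signals from the T cell receptor and CD28, and CTLA-4 competes with CD28 for the ligands CD80 and CD86. Activated T cells induce most of these receptors within days, so that they mark recent activation as well as the exhausted state of T cells in tumors. CD39 (Entpd1) degrades extracellular ATP to AMP, and CD73 (Nt5e) turns AMP into adenosine, which inhibits T cells through adenosine receptors.

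After S1P, the 10 genes did not move as a group. Ctla4 rose 1.92-fold, while Pdcd1 and Cd160 fell to 0.597 and 0.531 of their vehicle levels. The other 7 genes, Lag3, Havcr2, Tigit, Cd244a, Btla, Entpd1 and Nt5e, did not pass the test. Calls required an adjusted p no higher than 0.05 (edgeR, quasi-likelihood test, Benjamini-Hochberg correction across the whole table) together with a change of 0.3 or more on the log2 scale, up or down. Of these, 1 call upward and 2 downward among 10 genes stood beside a background of 23.1% of all tested genes called, 12.7% upward and 10.4% downward. The median log2 fold change was 0.10 over the 10 genes and 0.01 over all tested genes, with 5 of the 10 above 0 and 5 below.

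The samples carried transcripts that the label of CD8+ T cells does not cover. Levels are given as CPM, counts scaled to library size with TMM factors. Per kilobase of exon, Cd8a averaged 61 ± 6.84 and Cd4 45.2 ± 4.08 CPM in vehicle-treated samples (SD, n = 3). Cd79a, part of the B cell receptor, stood at 45.9 ± 5.06 on the same scale. All 10 B cell markers passed the filter, and their summed level ranged from 1114 to 1349 CPM in vehicle-treated and from 1175 to 1297 CPM in S1P-treated samples, with 1 called higher (Ebf1) and 2 lower (Ms4a1 and Cr2). Cd8a and Cd8b1 fell after S1P by 0.67 (SE 0.08) and 0.55 (SE 0.13) on the log2 scale, with adjusted p = 0.000243 and 0.00767 (edgeR), and their summed level was 309 to 397 CPM with vehicle and 205 to 230 CPM with S1P. The other 6 genes of the 8 in the CD8 T cell list are also made by other T cells and were not called, although Cd3d (log2 fold change -0.28, adjusted p = 0.0129) and Cd3g (-0.21, adjusted p = 0.0444, edgeR) passed the adjusted p with all S1P values below all vehicle values, and missed the fold threshold alone. The whole list summed to 1956 to 2123 CPM with vehicle and 1845 to 1929 CPM with S1P. Cd4 itself had a log2 fold change of 0.10 (SE 0.10, adjusted p = 0.487), while Zbtb7b and Cd40lg of the CD4 T cell list rose by 0.37 and 0.50, and the summed level of this list was 221 to 264 CPM with vehicle and 245 to 308 CPM with S1P. In the regulatory T cell list, Ikzf4 and Lrrc32 rose and Foxp3 did not pass (log2 fold change 0.02). Its summed level was 35.2 to 35.6 CPM with vehicle and 43.9 to 50.4 CPM with S1P. Trdc, the tested gene of the gamma delta T cell list, was called lower, and this list summed to 14.4 to 15.6 and 11.7 to 12.2 CPM. Myeloid markers summed to 7.77 to 9.58 CPM with vehicle and 7.93 to 11.8 CPM with S1P, with Lyz2 and Cd14 at or under 3 counts in all 6 samples, and NK cell markers to 4.18 to 5.53 and 4.5 to 7.2 CPM. In such bulk samples, fewer cells of a type and less RNA per cell cannot be told apart.

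Sequencing depth was 13636095 to 17089831 counts in vehicle-treated and 12048880 to 17384084 counts in S1P-treated samples. S1P replicate 2 stood apart from the rest, with 7.8% of its counts on mitochondrially encoded genes against 4.1% to 4.93% in the other 5 samples, and with 27224 genes detected against 22566 to 25235. Without this sample the log2 fold changes of genes that did not pass were 0.32 for Havcr2, -0.13 for Btla, 0.70 for Cd244a, 0.17 for Entpd1 and -0.29 for Nt5e, and none of these 5 was called. The other 5 genes are given with and without it below.

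Promoter sequence is shown for the 3 genes that passed the test, as the 250 bases before a transcription start annotated by RefSeq, 5′ to 3′ on the gene's strand. The windows come from the RefSeq promoter table (GRCm38.p6), which held 9 of the 10 genes in 11 windows, and were placed on GRCm39 by exact match. The Ctla4 window lies at chr1:60947934-60948183 on the plus strand, inside the annotated gene, and the Pdcd1 window at chr1:93980279-93980528 on the minus strand. Cd160 had 2 windows, of which the one at chr3:96721838-96722087 on the minus strand, also inside the annotated gene, is shown because it held motif matches. Capitals mark matches, on either strand, to an NFAT core (GGAAA), a hypoxia response core (ACGTG) or a T-box site (TCACACC).
Ctla4: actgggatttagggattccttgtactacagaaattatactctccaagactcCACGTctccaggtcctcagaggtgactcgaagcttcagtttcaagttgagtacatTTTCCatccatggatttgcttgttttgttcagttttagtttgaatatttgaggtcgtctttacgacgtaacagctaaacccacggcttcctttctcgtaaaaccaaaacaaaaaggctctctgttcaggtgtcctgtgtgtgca
Pdcd1: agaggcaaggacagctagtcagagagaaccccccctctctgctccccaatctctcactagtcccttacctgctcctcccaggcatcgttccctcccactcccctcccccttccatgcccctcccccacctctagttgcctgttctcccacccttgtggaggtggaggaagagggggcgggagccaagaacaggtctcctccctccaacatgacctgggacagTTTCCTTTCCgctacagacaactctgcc
Cd160: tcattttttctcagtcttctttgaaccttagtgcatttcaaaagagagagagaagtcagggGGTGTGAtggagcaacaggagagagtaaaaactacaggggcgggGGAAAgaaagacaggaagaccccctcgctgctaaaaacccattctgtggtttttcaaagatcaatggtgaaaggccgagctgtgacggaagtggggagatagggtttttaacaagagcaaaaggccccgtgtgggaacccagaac

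The Pdcd1 window held 2 adjoining NFAT cores, beginning at -28 and -23 from the start, whereas the Ctla4 window held an NFAT core at -144 and a hypoxia response core at -199. A second hypoxia response core in Ctla4 began 14 bases after the start and is not shown. The Cd160 window held an NFAT core at -145 and a T-box site at -189. Counting the full windows of 300 bases, which run 50 bases past the start, 6 of the 11 windows held an NFAT core, a short motif that 61.3% of all 32851 windows held. The hypoxia response core was present in 5 of the 11 (19.6% of all windows), the AP-1 motif TGANTCA in 2, those of Cd244a and Havcr2 (7.81%), and the T-box site in 1 (3.98%). The CRE motif TGACGTCA, the CHOP-ATF4 composite TGATGNAAT and the ISRE core (GAAA, any 2 bases, GAAA) were in none of the 11, and in 1.79%, 0.965% and 3.44% of all windows. Both strands were searched, and an ISRE core that follows a G also contains an NFAT core. A match describes letters only.

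Ctla4 (ENSMUSG00000026011, GRCm39 chr1:60926159-60954991, plus strand) was the most abundant of the 10 transcripts and the one that rose. Its level was 224, 333 and 204 CPM in the 3 vehicle-treated samples and 505, 480 and 474 CPM in the 3 S1P-treated samples. Every S1P-treated sample lay above every vehicle-treated one, and the vehicle-treated samples were much less even, with replicate 2 highest. The means were 254 ± 69.3 and 487 ± 16.4 CPM (SD, n = 3), a log2 fold change of 0.94 (SE 0.14, 95% interval 0.62 to 1.25, adjusted p = 0.000826, edgeR). Without vehicle replicate 2 the log2 fold change was 1.18, and without S1P replicate 2 it was 0.95.

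Pdcd1 (ENSMUSG00000026285, GRCm39 chr1:93966027-93980312, minus strand) moved the other way. It was measured at 51.7, 48.8 and 51.5 CPM with vehicle and at 32.3, 26.2 and 32 CPM with S1P. The vehicle-treated samples were close to one another, and all 3 S1P-treated samples lay below them, S1P replicate 2 lowest. Mean levels of 50.7 ± 1.58 and 30.2 ± 3.4 CPM (SD, n = 3) gave a log2 fold change of -0.74 (SE 0.09, 95% interval -0.94 to -0.55, adjusted p = 0.000206, edgeR), and -0.66 without S1P replicate 2.

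Cd160 (ENSMUSG00000038304, GRCm39 chr3:96706079-96736667, minus strand) encodes a receptor that binds HVEM, the product of Tnfrsf14, and is known from cytotoxic lymphocytes. Its values were 25.5, 37.3 and 34.1 CPM with vehicle and 15.1, 17.3 and 19.2 CPM with S1P, again without overlap between groups. The mean fell from 32.3 ± 6.09 to 17.2 ± 2.04 CPM (SD, n = 3), a log2 fold change of -0.91 (SE 0.14, 95% interval -1.22 to -0.60, adjusted p = 0.000866, edgeR). Without S1P replicate 2 it was -0.92. Of its exon bases, 2.56% lie under Pdzk1 on the opposite strand, and the strand setting of the counting was not given in the sources used here.

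**Figure D1:**
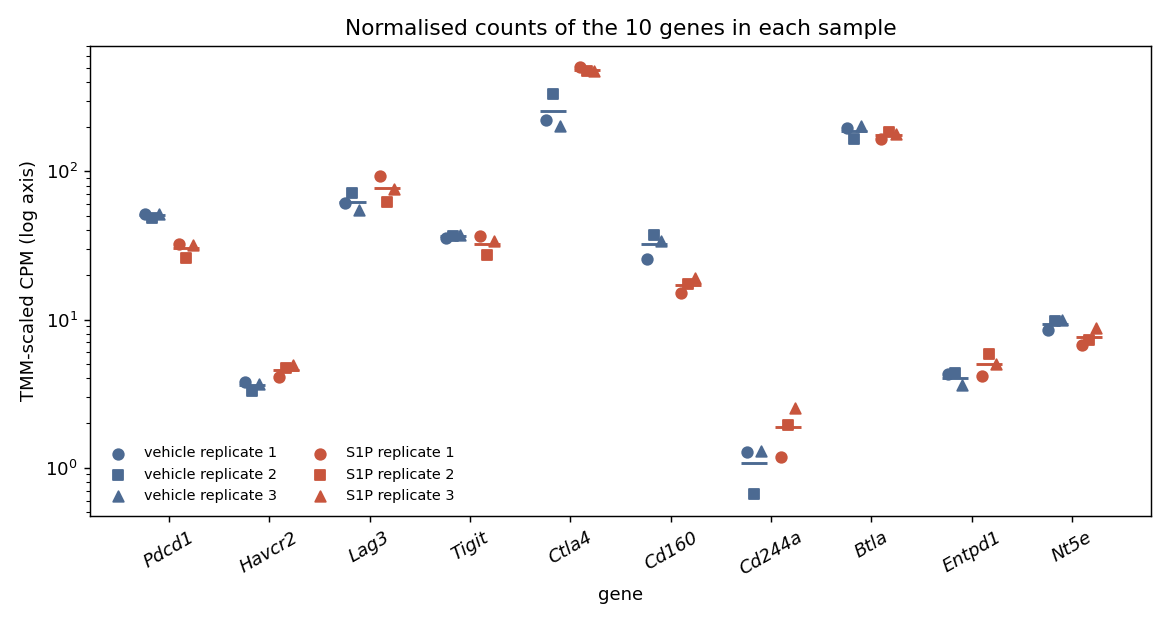
TMM-scaled CPM (log axis) of the 10 genes in each of the 3 vehicle-treated and 3 S1P-treated samples, with the group mean as a line. The Ctla4 points after S1P, 474 to 505 CPM, lie above all vehicle points, the Pdcd1 and Cd160 points after S1P lie below theirs, and the groups overlap in 6 of the 10 genes.

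Btla, the other HVEM receptor of the 10, was abundant and showed no difference past the threshold. It lay at 198, 166 and 202 CPM with vehicle and 165, 186 and 179 CPM with S1P, and the ranges overlapped. The means of 189 ± 19.8 and 177 ± 10.7 CPM (SD, n = 3) gave a log2 fold change of -0.10 (SE 0.08, 95% interval -0.28 to 0.09, adjusted p = 0.42, edgeR). Btla is a B cell as well as a T cell gene. Tigit, a receptor for the poliovirus receptor PVR, was measured at 35.4, 36.8 and 37.4 CPM with vehicle and 36.5, 27.3 and 33.8 CPM with S1P. S1P replicate 2 was lowest, S1P replicate 3 also lay below all vehicle-treated samples, and S1P replicate 1 fell among them. Its log2 fold change was -0.16 (95% interval -0.38 to 0.07, adjusted p = 0.271, edgeR), -0.05 without that sample and -0.26 without S1P replicate 1 (adjusted p = 0.0816, edgeR).

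Lag3, whose product binds MHC class II, depended on which S1P-treated sample was considered. It lay at 61.1, 71.8 and 54.8 CPM with vehicle and at 92.9, 62.3 and 75.8 CPM with S1P. S1P replicates 1 and 3 were above all vehicle-treated samples, whereas S1P replicate 2 fell among them. The log2 fold change over all 6 samples was 0.31 (SE 0.13, 95% interval 0.02 to 0.60, adjusted p = 0.107, edgeR). Without S1P replicate 2 it was 0.44 with an adjusted p of 0.00572, which is past both thresholds, and without S1P replicate 1 it was 0.15 with an adjusted p of 0.371.

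Havcr2 and Cd244a were measured from few counts. Havcr2, which encodes TIM-3, had 45 to 73 counts a sample, at 3.8, 3.3 and 3.66 CPM with vehicle and 4.11, 4.74 and 4.95 CPM with S1P. All S1P-treated values were above all vehicle-treated values, as in 23.0% of all tested genes, and the log2 fold change of 0.34 did not pass (SE 0.17, 95% interval -0.04 to 0.72, adjusted p = 0.165, edgeR). Together with Ctla4 it made 2 genes with all S1P values above the vehicle values, as against 2, Pdcd1 and Cd160, with all S1P values below (22.6% of all tested genes). These 4 of 10 compare with 45.6% of all tested genes whose groups did not overlap in either direction.

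Cd244a, the SLAM family receptor for CD48, had 9 to 32 counts a sample, and its values were 1.27, 0.66 and 1.29 CPM with vehicle and 1.18, 1.93 and 2.51 CPM with S1P. The groups overlapped through S1P replicate 1. Its log2 fold change of 0.74 came with a wide 95% interval of -0.03 to 1.52 (SE 0.35, adjusted p = 0.139, edgeR). Without S1P replicate 1 it was 1.03 with an adjusted p of 0.0424, past both thresholds, and without S1P replicate 3 it was 0.46 with an adjusted p of 0.428. At this depth, neither an absent change nor one as large as that of Ctla4 lay outside the interval.

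Among the ectonucleotidases, Entpd1 leaned upward and Nt5e downward, and neither passed the test. Entpd1 lay at 4.27, 4.33 and 3.6 CPM with vehicle and 4.16, 5.88 and 5.02 CPM with S1P, a log2 fold change of 0.29 (95% interval -0.12 to 0.69, adjusted p = 0.27, edgeR). Its groups overlapped because S1P replicate 1 lay within the vehicle range. Nt5e lay at 8.53, 9.76 and 9.9 CPM with vehicle and 6.75, 7.28 and 8.79 CPM with S1P, with the highest S1P value above the lowest vehicle value. Its log2 fold change was -0.31 (95% interval -0.62 to 0.00, adjusted p = 0.129, edgeR). Of the exon bases of Entpd1, 1.39% lie under a gene on the opposite strand.

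**Figure D2:**
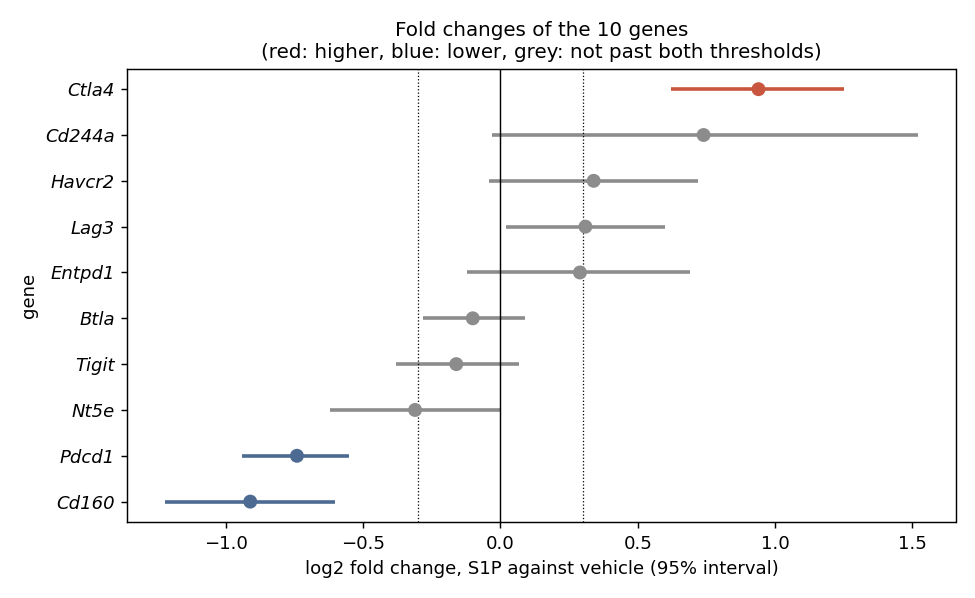
Log2 fold change of each of the 10 genes, S1P against vehicle, with its 95% interval from edgeR, and dotted lines at 0.3 in size. The intervals of Ctla4 (0.62 to 1.25), Pdcd1 (-0.94 to -0.55) and Cd160 (-1.22 to -0.60) lie wholly beyond the lines. That of Btla (-0.28 to 0.09) lies between the lines, that of Tigit (-0.38 to 0.07) reaches past the lower one, and that of Cd244a is the widest.

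Divided by exon length, the 10 transcripts spanned a wide range of levels. In vehicle-treated samples the mean level per kilobase ran from Ctla4 (109 CPM per kb) through Btla (48.2), Tigit (34.8), Lag3 (28.2), Pdcd1 (25.8) and Cd160 (12.2) to Nt5e (1.07), Havcr2 (0.736), Entpd1 (0.571) and Cd244a (0.217). Of the neighbors in this order, only Lag3 and Pdcd1 overlapped in their sample values. After S1P, Ctla4 stood at 209 CPM per kb and Pdcd1 at 15.3 CPM per kb. Lag3 (34.7) and Tigit (31) changed places, as did Havcr2 (0.943) and Nt5e (0.868), but the sample values of each pair overlapped. With the longest transcript as the length, Nt5e stood at 2.26 CPM per kb with vehicle and 1.83 with S1P, against 0.743 and 0.952 for Havcr2, and these 2 genes did not change places. Both ectonucleotidase genes, Havcr2 and Cd244a were thus the lowest 4 of the 10 in either group.

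Because Cd8a fell and the samples held Cd4 and B cell transcripts, the counts of each gene were also set against counts of lineage genes of the same sample, a description chosen after the values were seen and without a test. Per 100 counts of Cd8a, Pdcd1 gave 24.9, 19.5 and 24.8 counts with vehicle and 22.4, 19.9 and 22.4 with S1P, so that the groups overlapped. Cd160 overlapped in the same way, at 12.3, 14.9 and 16.4 against 10.5, 13.1 and 13.4. Cd8a itself fell to 0.629 of its vehicle level. Relative to Cd3e, a T cell gene shared by CD4 and CD8 cells, both remained lower without overlap: Pdcd1 went from a mean of 22.3 to 12.5 per 100 counts, and Cd160 from 14.2 to 6.98. Cd3e itself had a log2 fold change of 0.15, with S1P replicate 2 highest, unlike Cd3d and Cd3g, to which no ratios were taken. Relative to Cd8b1, Pdcd1 overlapped and Cd160 was lower by a narrow gap, at 24.6, 25.5 and 33.5 per 100 counts with vehicle and 17.5, 23.6 and 24 with S1P.

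Ctla4 was higher without overlap relative to each of the 5 lineage genes used, Cd8a, Cd8b1, Cd3e, Cd4 and Ms4a1. No gene of the regulatory T cell list was among these 5. That list summed to 35.2 to 35.6 CPM with vehicle and 43.9 to 50.4 CPM with S1P, although its gene Foxp3 had a log2 fold change of 0.02. Per 100 counts of Cd8a it rose from 108, 133 and 98.5 to 351, 364 and 333, and per 100 counts of Cd4 from 111, 179 and 91.8 to 259, 189 and 230. Per 100 counts of Cd3e it went from 102, 148 and 86.5 to 238, 155 and 204. The gap was narrow relative to both Cd3e and Cd4, between vehicle replicate 2 and S1P replicate 2. Lag3 was higher relative to Cd8a in all S1P-treated samples (29.4, 28.7 and 26.4 with vehicle, 64.5, 47.2 and 53.2 with S1P) but overlapped relative to Cd3e and Cd4. Relative to Cd8a, 7 of the 10 genes were higher without overlap, as were 79.8% of all tested genes, while 0.384% of all tested genes were lower and none of the 10 was. Relative to Cd3e, 1 of the 10 was higher and 3 were lower, beside 9.31% and 21.2% of all tested genes. Relative to Cd4 the counts were also 1 higher and 3 lower (10.4% and 18.5% of all tested genes), relative to Cd8b1 6 higher and 1 lower (61.8% and 0.436%), and relative to Ms4a1 5 higher and 1 lower (47.9% and 1.57%). Relative to Ms4a1, a B cell gene that fell, Btla was higher without overlap, at 86.3, 89.7 and 88.9 counts per 100 with vehicle and 109, 109 and 105 with S1P. Relative to Cd4 it was lower without overlap, at 98.3, 89.2 and 90.8 against 84.6, 72.9 and 87. Relative to Ms4a1, Pdcd1 was lower by a narrow gap (22.5, 26.4 and 22.6 against 21.4, 15.5 and 18.6), and Cd160 overlapped. The part of the cell mixture in these changes was not tested.

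**Figure D3:**
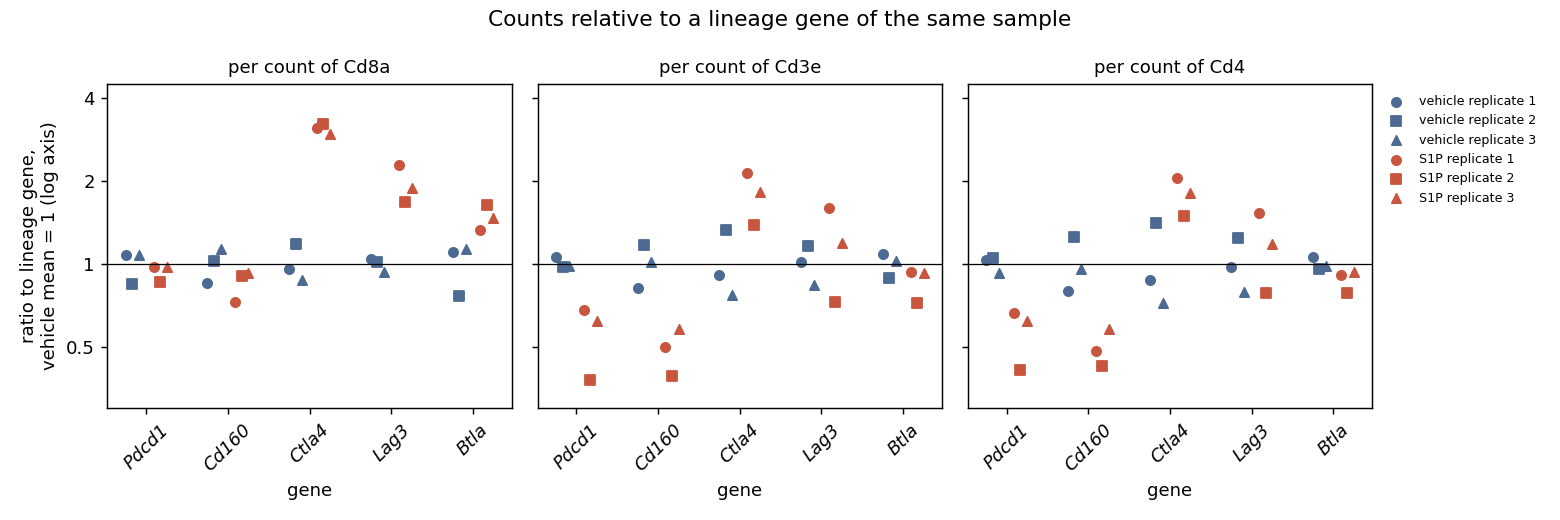
Counts of 5 genes divided by the counts of Cd8a, Cd3e or Cd4 in the same sample, with the vehicle mean set to 1 (log axis), each point 1 sample. Ctla4 lies above the vehicle points in all 3 panels, and Pdcd1 and Cd160 overlap with them per count of Cd8a and lie below them per count of Cd3e and Cd4.

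The ligands of these receptors and the receptors that compete for them were measured in the same samples. Of 17 listed genes, 15 were tested, 4 were called higher and 1 lower, with a median log2 fold change of 0.12, beside 12.7%, 10.4% and a median of 0.01 over all tested genes. Pvr, the ligand of TIGIT, rose from 32.7, 34.4 and 32.7 to 59.9, 52.1 and 57.9 CPM, a log2 fold change of 0.77 (SE 0.08, adjusted p = 7.64e-05, edgeR). Cd86, a ligand of CTLA-4 and CD28, rose from 10.1, 8.66 and 10.2 to 15.1, 16.5 and 16.7 CPM (log2 fold change 0.73), and Lgals3, encoding a galectin that binds LAG-3, rose by 0.73. Lgals9, encoding the galectin bound by TIM-3, rose by 0.44. Pdcd1lg2, which encodes the PD-1 ligand PD-L2, fell by 0.39 on the log2 scale, and its call was lost without vehicle replicate 3 (log2 fold change -0.32, adjusted p = 0.062, edgeR). The other PD-1 ligand gene, Cd274, had a log2 fold change of 0.16 and did not pass, nor did Cd80 (0.12), Tnfrsf14 (-0.13), Cd28 (0.14) and Cd226 (-0.15). Antigen-presenting cells make several of these ligands, and their level in T cells was not separable here from that in B cells.

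A list of other inhibitory receptors of T, NK and B cells, which also held the partner genes Cd200 and Klrd1, had 18 genes, of which 15 were tested. Among the 15, 2 were called higher and 1 lower, beside 12.7% and 10.4% of all tested genes. Their median log2 fold change was 0.01, as over all tested genes. Lilrb4b rose by 0.51 and Lair1, a collagen receptor, by 0.37. Neither call was firm. Lilrb4b lost it without vehicle replicate 3 (0.43, adjusted p = 0.0852) or S1P replicate 1 (0.36, adjusted p = 0.0656), and Lair1 lost it in 11 of 17 alternative analyses, in which its log2 fold change was 0.30 to 0.44 (edgeR, DESeq2 or limma-voom). Reads of Lilrb4b may also be shared with its close copy Lilrb4a, which had a log2 fold change of 0.14. Cd22, an inhibitory receptor of B cells, fell from 117, 89.3 and 115 to 75.7, 82.3 and 79.2 CPM (log2 fold change -0.44, adjusted p = 0.00642, edgeR). Cd96, which shares PVR as a ligand with TIGIT, had a log2 fold change of -0.13, Cd5 0.07 and Vsir, encoding VISTA, 0.01, and none of these passed.

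Within the SLAM family of Cd244a and its adapters, 7 of 9 genes were tested. Among the 7, 1 was called higher and 1 lower, beside 12.7% and 10.4% of all tested genes. Without S1P replicate 1, 2 were called lower. The median log2 fold change of the list was -0.08, beside 0.01 over all tested genes. Slamf7 rose from 97.1, 97.9 and 88.3 to 157, 166 and 145 CPM, a log2 fold change of 0.73 (SE 0.07, adjusted p = 7.64e-05, edgeR). Slamf6, whose product marks progenitor-like exhausted T cells, fell from 147, 149 and 152 to 96.2, 100 and 107 CPM, a log2 fold change of -0.57 (SE 0.07, adjusted p = 0.000154, edgeR). The groups were far apart in both genes compared with the spread within them. Cd48, the ligand of the Cd244a product, had a log2 fold change of -0.01, Ly9 of -0.08 and Slamf1 of 0.07, and Sh2d1a, encoding the adapter SAP, had -0.36 without passing.

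Of the phosphatases, kinases and adapters through which inhibitory receptors signal, all 12 were tested and 1 was called, lower. Among all tested genes, 12.7% were called higher and 10.4% lower. The median log2 fold change of the 12 genes was -0.05, beside 0.01 over all tested genes. Without vehicle replicate 2, 1 was called higher and 2 lower, and without S1P replicate 3, 2 were called lower. Csk, a kinase that holds Lck in check, fell from 257, 264 and 270 to 208, 206 and 210 CPM, a log2 fold change of -0.34 (SE 0.06, adjusted p = 0.00203, edgeR). The phosphatase genes recruited by PD-1, Ptpn11 (SHP-2) and Ptpn6 (SHP-1), had log2 fold changes of -0.28 and 0.07. Of the 12, 3 (Ptpn11, Bag6 and Cblb) had an adjusted p under the threshold but changed by less than 0.3 in size.

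In the purine and adenosine pathway around Entpd1 and Nt5e, 22 of 29 genes were tested. Among the 22, 3 were called higher and 5 lower, beside 12.7% and 10.4% of all tested genes. Their median log2 fold change was 0.01, as over all tested genes. The higher calls were P2ry10, Dpp4 and P2rx4, and their number dropped to 1 without vehicle replicate 1, vehicle replicate 3 or S1P replicate 2. P2rx4 lost its call in 12 of 17 alternative analyses and Dpp4 in 4. Both equilibrative nucleoside transporter genes of the list fell: Slc29a1 from 86.5, 89 and 89.3 to 53.3, 51.1 and 53.4 CPM (log2 fold change -0.75, SE 0.07, adjusted p = 3.62e-05, edgeR), and Slc29a2 from 5.59, 4.99 and 5.01 to 3.43, 2.72 and 2.98 CPM (log2 fold change -0.76, SE 0.18, adjusted p = 0.00826, edgeR). These transporters carry adenosine across the plasma membrane. Pnp, a purine nucleoside phosphorylase, fell by 0.52 on the log2 scale. P2ry10, which encodes a receptor for lysophospholipids and is grouped with nucleotide receptors by name, rose from 161, 169 and 153 to 247, 245 and 255 CPM (log2 fold change 0.63, SE 0.07, adjusted p = 8.13e-05, edgeR). The adenosine receptor genes Adora2a and Adora2b both had a log2 fold change of 0.02, and Ada, the gene for adenosine deaminase, had -0.30 without passing.

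A list of 24 transcriptional regulators, chosen around inhibitory receptor genes with earlier results of these data known, was tested in full. It includes Tox, Ikzf2, Id2, Id3, Eomes and Tcf7, which the study reported as changed in these data, so its counts are not independent of them. Among the 24, 6 were called higher and 4 lower, beside 12.7% and 10.4% of all tested genes. The median log2 fold change was 0.25, beside 0.01 over all tested genes. A further 5, Irf4, Foxo1, Nr4a1, Nr4a2 and Nr4a3, had an adjusted p under the threshold and were higher by 0.23 to 0.27, so that 11 would be called higher with no threshold on the fold change. Jun, an AP-1 subunit, rose from 35.4, 27.1 and 36.9 to 76.8, 90.1 and 73.4 CPM, a log2 fold change of 1.27 (SE 0.12, adjusted p = 4.04e-05, edgeR). Stat3 rose by 0.51, Ikzf2 by 0.49, Tox by 0.46, Id2 by 0.37 and Hif1a by 0.36, and all of these were called. Tox lost its call in 4 of 17 alternative analyses. Smad3 and Tcf7 were called lower, with log2 fold changes of -0.35 and -0.33. Id3, an inhibitor of E proteins, fell by 1.01 on the log2 scale (SE 0.17, adjusted p = 0.00151, edgeR). Eomes, a T-box factor of cytotoxic lymphocytes, fell from 62, 66.9 and 66.1 to 31.3, 42.1 and 34.4 CPM (log2 fold change -0.86, SE 0.10, adjusted p = 0.000162, edgeR). The NFAT genes Nfatc1 and Nfatc2 had log2 fold changes of -0.05 and -0.09, and Tbx21, the other T-box factor of the list, had -0.17, and none of these passed.

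**Figure D4:**
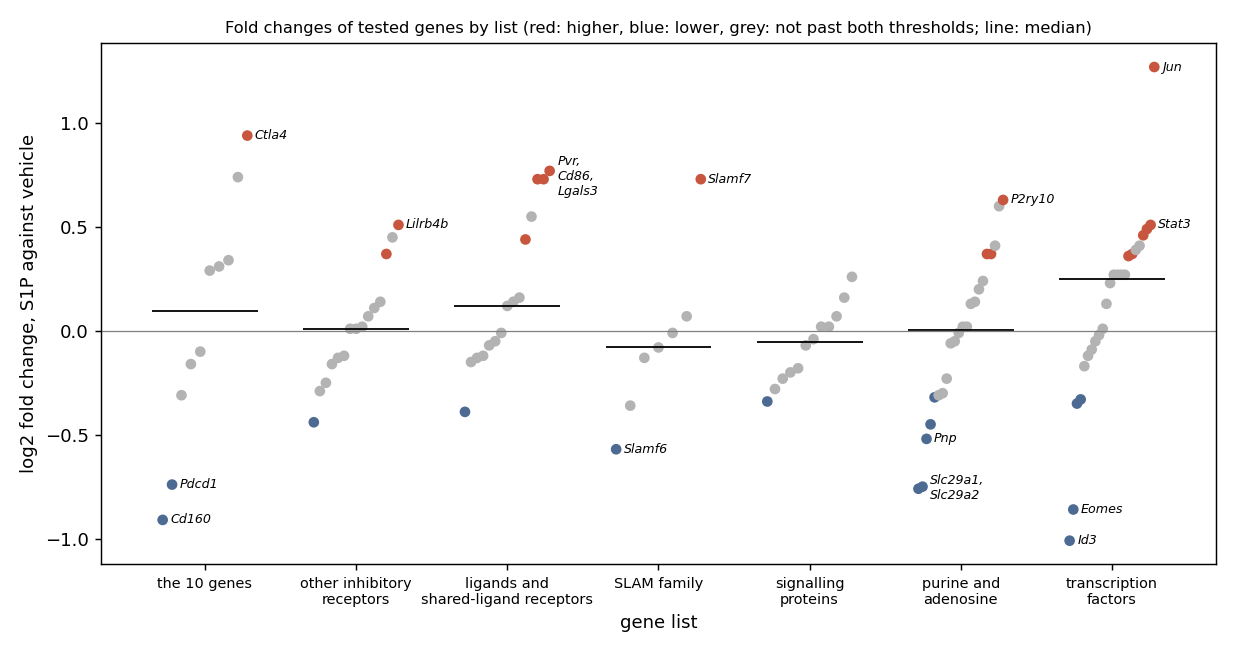
Log2 fold change, S1P against vehicle, of every tested gene of the 10 genes and of 6 related lists, colored by call, with each list's median as a line. Called genes lie on both sides of 0 in every list except the signaling proteins, and labels name called genes that changed by at least 0.5 in size.

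Pdcd1, Ctla4 and Cd244a lie on chromosome 1 and Tigit and Btla on chromosome 16. Within 100 kb of the gene bodies of all 10 genes, 43 other tested genes were found, of which 6 were called higher and 4 lower, beside 12.7% and 10.4% of all tested genes. The neighbors named here were chosen after their values were seen. Icos, 62.1 kb from Ctla4 and also a CD28 family gene, had a log2 fold change of 0.06 (95% interval -0.09 to 0.21) beside the rise of Ctla4. Rpl18-ps1, a pseudogene inside the Ctla4 gene body with 12 to 35 counts a sample, was called higher with a log2 fold change of 0.99 (SE 0.34, adjusted p = 0.0484, edgeR), and its reads may be shared with copies of its parent gene. Cd4 lies 6.6 kb from Lag3 and had 0.10. Slamf7, 22.7 kb from Cd244a, rose as described above, whereas Ly9, which overlaps the Cd244a gene body, did not pass. Gpr89, 38.9 kb from Cd160, was called lower with a log2 fold change of -0.36.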

How the data were processed

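Polyadenylated RNA from 3 vehicle-treated and 3 S1P-treated samples was sequenced from strand-specific libraries. The deposited table holds raw read counts per Ensembl gene, which the authors made with Trim Galore, STAR and featureCounts on GRCm39, per the submitters' processing notes. Versions, strand setting, annotation release and the handling of reads with several matches were not given in the sources used here. Identifiers were named from the GENCODE annotation of GRCm39, which held 56323 of 56941, and 34414 had at least 1 count.

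Counts were scaled by TMM, filtered with filterByExpr and compared by edgeR's quasi-likelihood F-test, treatment being the sole term (edgeR 4.0.16, limma 3.58.1, R 4.3.3), with Benjamini-Hochberg adjustment over 13299 genes. Thresholds, those of the study, were 0.05 for the adjusted p and 0.3 for the size of the log2 fold change. DESeq2 1.42.0, limma-voom, other scaling, filters and call rules, a replicate block and the omission of each sample in turn were alternatives. CPM values are TMM-scaled, and levels per kb use the union of exons. A level of at most 3 counts was taken as the floor, which covers counting error only. Samples were grouped by their treatment labels, which call them biological replicates without naming animals or cultures, so p-values measure the spread between these samples. No 2 samples of the same group agreed within sampling noise.

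The 10 genes and the related lists were chosen with earlier results of these data known. All 10 are named, and from each list up to 4 called genes with the largest changes. Further genes of the lists, among them Pdcd1lg2, Dpp4, P2rx4 and genes that did not pass, were named after their values were seen. The test was checked on simulated data. Of the genes simulated for S1P against vehicle, 13069 passed the filter. Among them edgeR recovered 65 of 99 genes changed by 0.6 on the log2 scale and 82 of 98 changed by 1, and called 17 unchanged genes. With no change simulated, edgeR called 3. Far fewer genes were changed in the simulation than the 23.1% called in these data, and no simulated sample stood apart, so these figures may not carry over. Protein sequences were not used here. A further lineage gene is not reported here.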

Additional observations from a re-analysis of the deposited data

How the results depend on the processing

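Ctla4, Pdcd1 and Cd160 kept their direction in all 17 alternatives and their calls in 16, the exception being the rule that asks for a log2 fold change of at least 1. Their log2 fold changes ranged from 0.80 to 1.18, from -0.80 to -0.66 and from -1.06 to -0.80. Under the rule of at least 1, 383 genes were called higher and 82 lower, and of the 10 genes 0 were called in either direction. When each sample was left out in turn, the genes called higher numbered 1158 to 1736 and the genes called lower 961 to 1492, and of the 10 genes 1 to 2 were called higher and 2 lower. The additional gene was Cd244a without S1P replicate 1 and Lag3 without S1P replicate 2. Whether the replicate numbers pair the samples was not settled. The deviations of same-numbered samples correlated at 0.12, -0.00598 and 0.0483 over 13299 genes. The value for number 1 was the highest of all pairs. Vehicle replicate 2 correlated best with S1P replicate 3 (0.0215), and vehicle replicate 3 about equally with S1P replicates 2 (0.0496) and 3. Such correlations among 3 samples per group cannot exclude shared animals or cultures. With a replicate block, 1697 genes were called higher and 1423 lower, and among the 10 genes again Ctla4 rose and Pdcd1 and Cd160 fell. Cd244a was not tested when at least 10 counts were required in every sample. With 9 to 32 counts for Cd244a and 45 to 73 for Havcr2, counting error limits both, and no reversal of direction was seen for the 10 genes in any alternative.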
